A study of Mus musculus with 6 samples.

Results

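The 40 genes described here encode the proteins that license origins of replication, open them and copy the DNA. They comprise the Mcm2-7 helicase (6 genes), the licensing factors (5), the factors that switch the helicase on (4), the polymerase, clamp and lagging strand genes (12), the enzymes of nucleotide supply (5), genes of chromatin assembly and S phase (6) and a pair of genes of cohesion and recombination. The members were listed by symbol, and no measured value enters the rule. The list was, however, chosen with earlier results of these data known. Counts of members beside shares of all genes are therefore a description and no test. All 40 were found among the 27998 genes of the count tables, and all 40 had at least 100 unique molecular identifiers (UMIs, each marking 1 captured transcript) over the cardiomyocytes (CMs) of all libraries, a minimum that 11412 genes passed.

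In G1, the origin recognition complex, Cdc6 and Cdt1 load the Mcm2-7 ring onto DNA, and geminin blocks Cdt1 once S phase has begun, so that an origin fires only a single time per cycle. Cdc45 and GINS then turn the ring into the moving helicase, polymerases copy behind it, and histones and cohesion are laid down on the new strands. Most of these genes are transcribed from late G1 onwards and are low in resting cells. Mouse CMs divide before birth, whereas in the first days after birth many of them copy their DNA without completing division and become binucleated or tetraploid.

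The data were 6 single-cell RNA-seq libraries of CMs from the left ventricle of C57BL/6J mice, fixed in methanol and sorted by FACS on the CM antigen MYH1 and on DNA content with Hoechst. Diploid (2n) and tetraploid (4n) CMs were each taken at embryonic day 16.5 (libraries E16.5-2n and E16.5-4n), at postnatal day 1 (P1-2n and P1-4n) and at postnatal day 5 (P5-2n and P5-4n). Each library pooled the cells of 3 sorts, each from its own litter. There was thus 1 library per condition and no replicate, so that no test between conditions was possible. Library preparation cannot be told apart from age and ploidy. The litters differed between ages and cannot be told apart from age. The sorts are described per age, so that the diploid and tetraploid CMs of an age came from the same litters. A gate on DNA content also takes 2n-CMs that have copied their DNA and not yet divided as 4n.

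A CM was a cell with at least 1 UMI of each of Tnni3, Tnnt2, Actc1 and Tnnc1, which held for 30733 of 31156 cells (3654 to 7340 per library, with a median of 1831 to 4658 UMIs per CM). The filter fixes the detection of these genes. The further CM markers Myh6, Myh7, Ryr2 and Actn2 were detected in every library. Markers of other cell types were present too: 29 stromal, endothelial, immune, mural and epicardial markers summed to 202, 983, 198, 1184, 371 and 479 CPM (UMIs per 1000000 UMIs), from the earliest to the latest age and with 2n before 4n at each, with only Ptprc and Upk1b at 0 and only in E16.5-2n. The share of CMs with at least 2 such UMIs ran from 4.06% in P1-2n to 40.9% in P1-4n, and 6 erythroid genes ran from 1649 CPM in P5-4n to 10332 CPM in E16.5-4n. Of 30652 distinct barcodes, 499 occurred in more than 1 library (17 to 62 per pair of libraries). In the following, levels are CPM over the CMs of a library and are compared between libraries, not between genes. Brackets give 95% exact intervals, which cover counting error only, and a gene is called higher or lower at a CPM ratio of at least 2. Values of the 6 libraries are always listed in that order (2n then 4n at E16.5, at P1 and at P5).

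The summed level of the 40 members was 1966, 2493, 659, 735, 1534 and 1278 CPM, or 5.04, 6.68, 1.48, 3.04, 6.23 and 6.44 UMIs per CM. In CPM the members were high before birth, low in both P1 libraries and intermediate at P5, whereas in UMIs per CM, which also follow the depth of a library, P5-2n lay above E16.5-2n. The log2 ratio of P1 over E16.5 was -1.58 in 2n-CMs and -1.76 in 4n-CMs, and that of P5 over P1 was 1.22 and 0.80, respectively. As a share of all UMIs, the summed members were higher in tetraploid than in diploid CMs at E16.5 (0.34 [0.32 to 0.37], log2 of 4n over 2n CPM). At P1 the sum was higher too (0.16 [0.12 to 0.19]), and at P5 it was lower (-0.26 [-0.29 to -0.24]). Member by member, 21 of 40 ratios were above 0 at E16.5, 26 at P1 and 9 at P5. Over all genes tested, 6322 of 11398, 6925 of 11412 and 6066 of 11404 were above 0, respectively. In UMIs per CM, P5-4n was not below P5-2n. Stromal marker levels were higher in the 4n than in the 2n library at each age. Without the CMs that carried at least 2 stromal UMIs, the 3 log2 ratios were 0.48, 0.13 and -0.28.

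**Figure D1:**
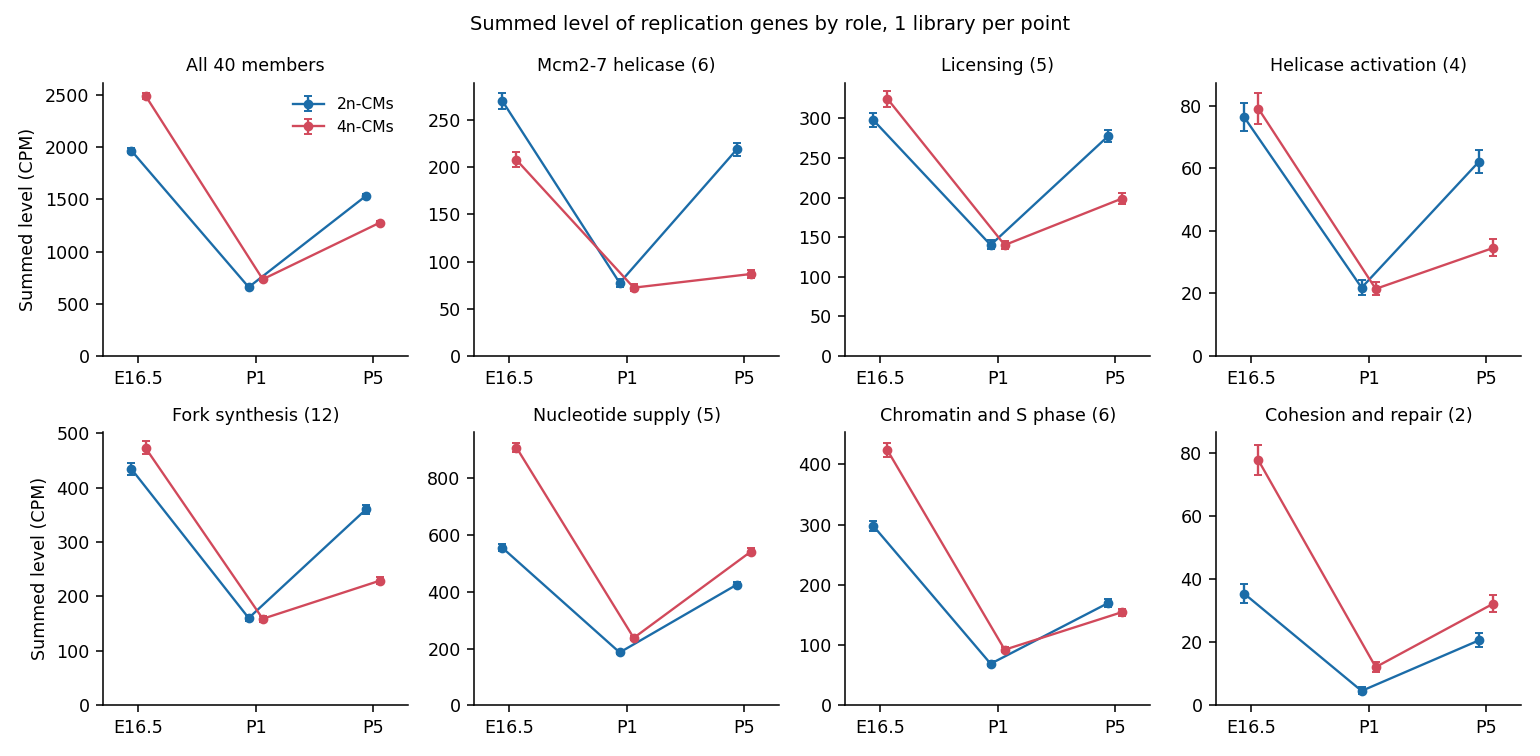
Summed level in CPM (y axis, from 0) of all 40 members and of each group of members at E16.5, P1 and P5 in 2n-CMs (blue) and 4n-CMs (red); each point is 1 library and bars are 95% exact Poisson intervals. All groups are lowest at P1, and at P5 the red point lies below the blue point for the helicase genes (86.8 against 218.8 CPM) and above it for nucleotide supply (542.0 against 425.5 CPM).

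The first comparison was across birth within each ploidy. In 2n-CMs, 39 of 40 members were at least 2-fold lower at P1 than at E16.5 and 0 were higher, whereas 14.7% of all genes tested were lower and 3.08% higher. In 4n-CMs, 37 of 40 were lower and 0 higher, against 12.6% and 3.93% of all genes. The median log2 ratio of the members was -1.80 in 2n-CMs and -1.84 in 4n-CMs, beside medians over all genes of -0.34 and -0.29. The exception in 2n-CMs was Gmnn (geminin), which stood at 193.6 CPM at E16.5 and 114.2 CPM at P1. Those in 4n-CMs were Mcm4 (17.8 and 9.25 CPM), Pold1 (16.98 and 8.54 CPM) and Rfc3 (29.8 and 15.0 CPM), all just short of 2-fold.

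The depth of the fall differed between groups of members. It was deepest for the genes of cohesion and recombination, whose sum was 35.4, 77.7, 4.56, 12.1, 20.6 and 32.2 CPM. Esco2, the acetyltransferase that establishes cohesion in S phase, had a log2 ratio of -3.09 for P1-2n over E16.5-2n [-3.60 to -2.61]. The ratio was -2.79 for Rad51ap1 and -2.82 for 2810417H13Rik, the Pcna-binding factor also named Pclaf. At the other end, Rfc2 (-1.03) and Dut (-1.03) barely passed 2-fold in 2n-CMs.

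The second comparison was from P1 to P5, which uses the same P1 libraries as the first. In 2n-CMs, 31 of 40 members were at least 2-fold higher at P5 and 0 lower, while 5.09% of all genes were higher and 3.29% lower. In 4n-CMs, 10 of 40 were higher and 0 lower, against 2.71% and 8.40% of all genes. The median member ratio was 1.57 in 2n-CMs and 0.61 in 4n-CMs, beside -0.08 and -0.18 over all genes. The 10 members called in 4n-CMs were Gins1, Pole, Fen1, Rrm1, Rrm2, Tk1, Asf1b, 2810417H13Rik, Rad51ap1 and Esco2, and none of them was a helicase or licensing gene. Set against E16.5, P5 left 3 members at least 2-fold lower and 0 higher in 2n-CMs (18.5% and 4.60% of all genes), namely Orc6, Tyms and 2810417H13Rik. In 4n-CMs, 28 were lower and 0 higher (23.5% and 3.19% of all genes), with a median of -1.18 beside -0.53 over all genes. The median gene thus moved between ages on the CPM scale. When the libraries were scaled by the median of ratios instead, which shifts P5-2n against E16.5-2n by 0.45, the summed members stood slightly above E16.5 in P5-2n (0.09 in place of -0.36). With that scaling 7 members, in place of 28, were at least 2-fold lower in P5-4n than in E16.5-4n, against 8.82% of all genes.

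**Figure D2:**
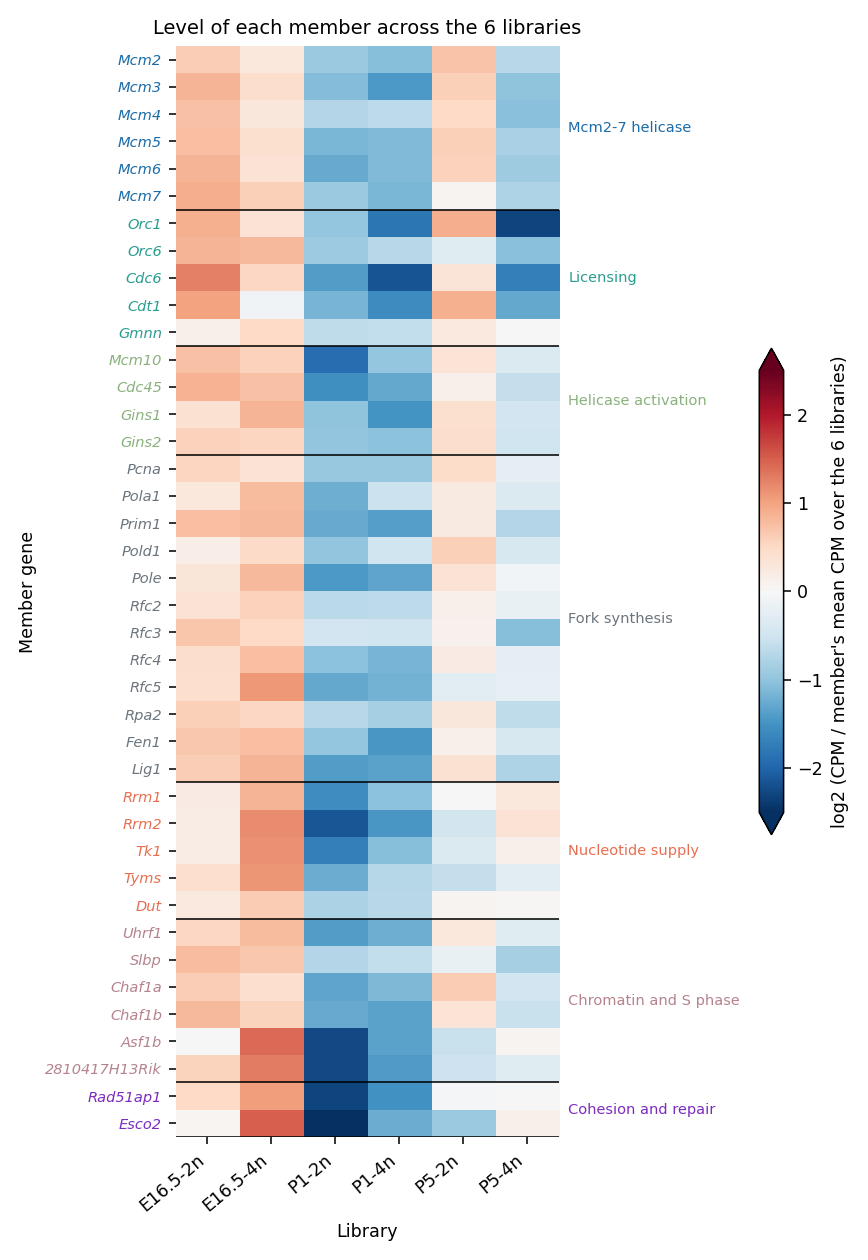
Level of each of the 40 members (rows, grouped by role) in the 6 libraries (columns), as log2 of CPM over the mean CPM of that member across the libraries. Both P1 columns are blue for all 40 rows; E16.5-2n is the highest library for 16 members, E16.5-4n for 20 and P5-2n for 4, while P1-2n is the lowest for 23, P1-4n for 12 and P5-4n for 5.

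The third comparison was between ploidies at 1 age, and here the groups of members parted. At E16.5, 2 of 40 members were at least 2-fold higher in 4n-CMs and 1 lower, against 6.95% and 0.509% of all genes. At P1, 1 was higher and 0 lower, against 8.10% and 0.0789% of all genes. At P5, 1 was higher and 11 were lower, against 2.39% and 1.04% of all genes. The median member ratio was 0.07 at E16.5, 0.08 at P1 and -0.71 at P5, beside 0.04, 0.07 and 0.02 over all genes. All 11 members lower in P5-4n were below P5-2n under each of the 6 alternatives that changed the cells or the scaling. With stromal-marked CMs left out (20.4% of CMs in P5-4n and 11.9% in P5-2n), 15 members were lower and 1 higher, against 2.02% and 2.96% of all genes.

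Of the 6 helicase genes, 5 were at least 2-fold lower in P5-4n. Mcm2 (chr6:88883474-88898780, GRCm38) stood at 50.7, 39.9, 17.3, 15.7, 54.2 and 20.4 CPM. Mcm3 stood at 44.6, 33.7, 11.7, 9.20, 37.4 and 12.4 CPM, and Mcm6 at 47.1, 33.7, 10.9, 12.1, 38.7 and 14.1 CPM. In each of them P5-2n had returned to near the E16.5 values, whereas P5-4n had remained close to the P1 libraries. At P5 the 4n over 2n ratio was -1.41 [-1.59 to -1.24] for Mcm2, -1.59 [-1.82 to -1.37] for Mcm3 and -1.46 [-1.67 to -1.25] for Mcm6. Mcm4 (-1.56) and Mcm5 (-1.42) had ratios of the same size, and Mcm7 was the only one of the 6 short of 2-fold (40.9 and 22.8 CPM at P5, -0.84). Already at E16.5 all 6 lay below 0, from -0.48 for Mcm6 to -0.32 for Mcm7. At P1 the 6 ratios lay between -0.35 and 0.14, and the sign of their sum (-0.10) turned when each CM was weighted equally (0.05).

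Of the 5 licensing factors, Orc1, Cdt1 and Cdc6 had the lowest ratios of all members at P5, while the group as a sum was at -0.48. Cdt1 (chr8:122568015-122573554), which brings the helicase to the origin, was at 44.1, 20.7, 9.79, 7.32, 40.6 and 9.02 CPM. It was at least 2-fold lower in 4n-CMs both at E16.5 (-1.09 [-1.30 to -0.89]) and at P5 (-2.17 [-2.42 to -1.93]), but not at P1 (-0.42). Cdc6, the ATPase that acts with Cdt1, was at 12.0, 7.12, 1.89, 1.12, 6.19 and 1.52 CPM and was lower in P5-4n than in P5-2n (-2.02 [-2.68 to -1.42]). Orc1, the largest subunit of the origin recognition complex, was scarce (1.98, 1.38, 0.55, 0.31, 2.01 and 0.22 CPM). Its ratio at P5 (-3.21 [-5.16 to -1.73]) rests on 4 UMIs in P5-4n, where 3 UMIs correspond to 0.16 CPM. Orc6 ran from 46.0 CPM in E16.5-2n to 12.3 CPM in P5-4n and was -0.74 at P5. Geminin, the inhibitor of Cdt1, did not reach 2-fold between ploidies. Gmnn was at 193.6, 250.3, 114.2, 115.5, 207.8 and 175.6 CPM, with 4n over 2n ratios of 0.37, 0.02 and -0.24. An overlapping gene on the same strand, Gm20388, is annotated at Cdt1 and at no other member, so that reads in the shared part could not be assigned to either.

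The factors that switch the helicase on shared the P5 difference without reaching 2-fold. Cdc45 was at 26.3, 24.2, 4.99, 6.00, 15.8 and 9.56 CPM, Gins2 at 30.2, 29.7, 10.2, 9.97, 27.4 and 14.4 CPM, and Gins1 at 15.5, 21.4, 5.96, 4.22, 15.7 and 8.59 CPM. Mcm10 did not exceed 4.17 CPM in any library. The 4 ratios at P5 lay between -0.93 (Gins2) and -0.70 (Mcm10).

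**Figure D3:**
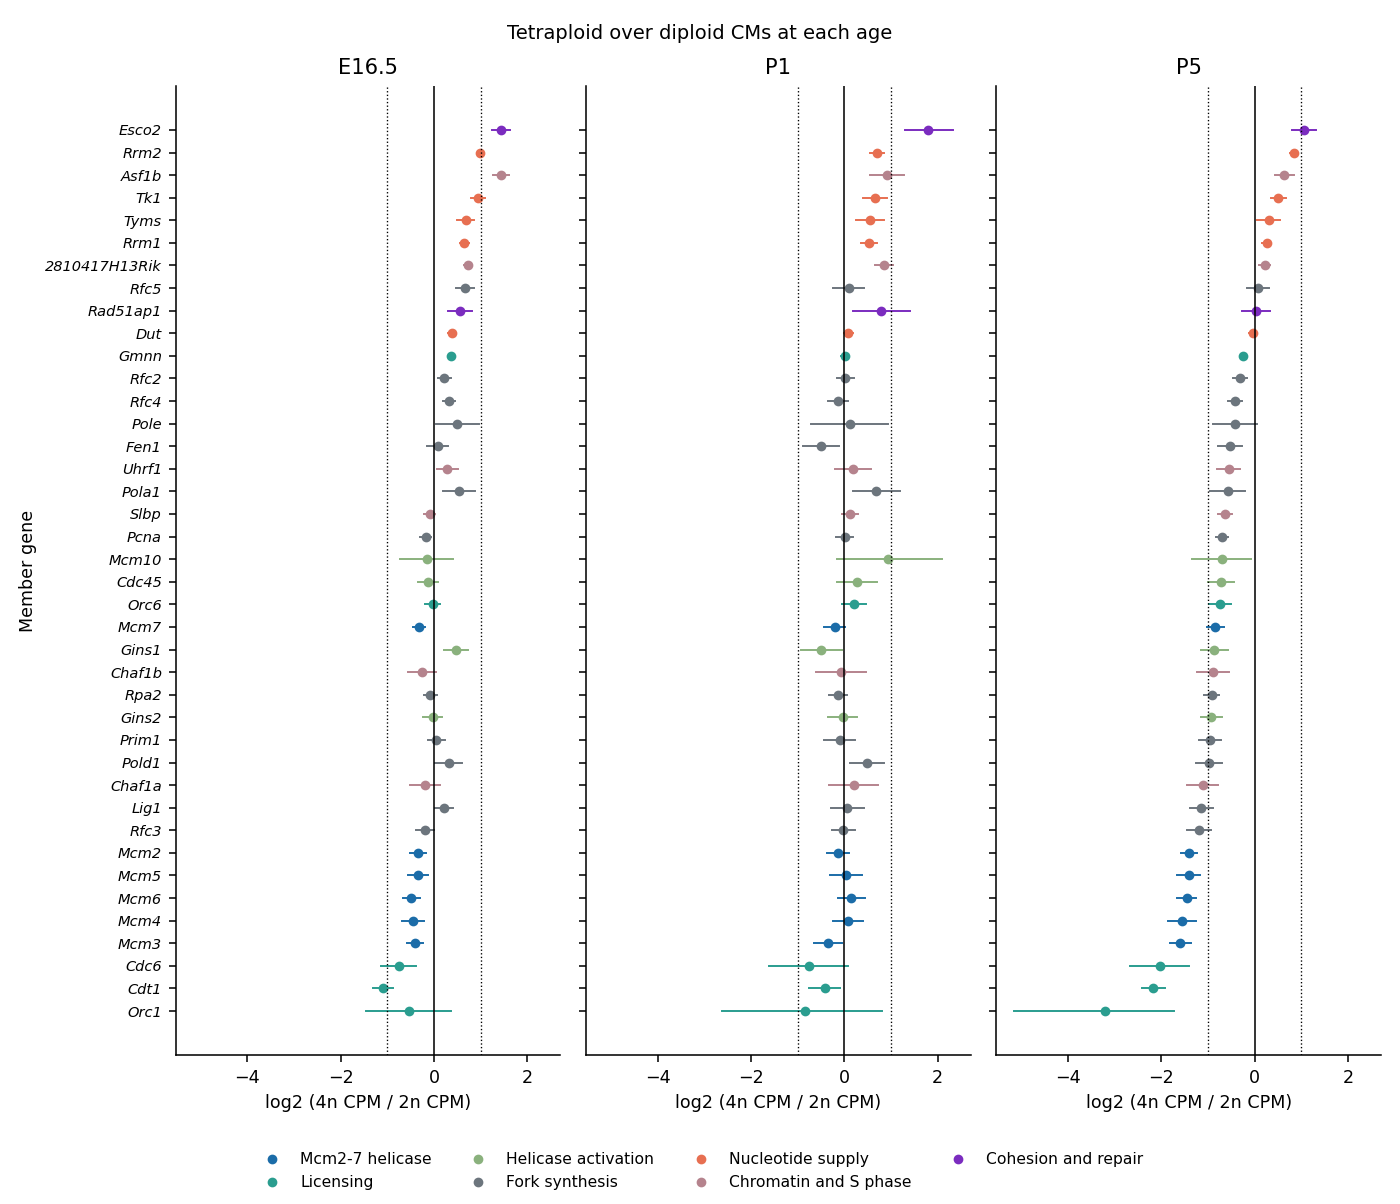
Log2 of 4n over 2n CPM (x axis) for the 40 members (rows, ordered by the P5 value, coloured by group) at E16.5, P1 and P5; lines are 95% exact intervals, dotted lines mark 2-fold. At P5 the lowest rows are Orc1, Cdt1, Cdc6 and then Mcm3, Mcm4, Mcm6, Mcm5 and Mcm2, and the highest are Esco2, Rrm2 and Asf1b. At P5, 29 of 40 intervals lie wholly below 0 against 10 at E16.5 and 4 at P1. Wholly above 0 lie 7 at P5, 19 at E16.5 and 10 at P1. Intervals were not counted over all genes.

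Among the 12 genes of fork synthesis, Rfc3 and Lig1 were at least 2-fold lower in P5-4n. Lig1, the ligase that seals Okazaki fragments, was at 30.3, 35.4, 7.42, 7.73, 25.6 and 11.6 CPM (-1.14 [-1.38 to -0.90] at P5). Rfc3, a subunit of the loader of the Pcna clamp, was at 34.3, 29.8, 15.2, 14.9, 23.0 and 10.1 CPM (-1.19 [-1.44 to -0.93]). The other loader subunits had smaller ratios at P5, namely -0.32 [-0.46 to -0.17] for Rfc2, -0.42 [-0.57 to -0.27] for Rfc4 and 0.07 [-0.17 to 0.30] for Rfc5. Pcna itself was at 77.6, 68.5, 27.6, 27.8, 72.7 and 45.0 CPM, with -0.69 at P5. A processed copy, Pcna-ps2, had 1.89 to 4.97 CPM and could share reads with it. The catalytic subunits Pola1 (-0.58), Pold1 (-0.98) and Pole (-0.42), the primase Prim1 (-0.96), the single-strand binding subunit Rpa2 (-0.92) and the flap nuclease Fen1 (-0.53) were all below 0 at P5. At E16.5 the same 12 genes lay between -0.20 and 0.67, and at P1 between -0.50 and 0.68.

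Taken over all CMs, nucleotide supply went the other way. Rrm2 (chr12:24708241-24714146), the cell cycle regulated small subunit of ribonucleotide reductase, was at 182.4, 363.4, 36.4, 58.9, 116.6 and 208.0 CPM. It was higher in 4n-CMs at every age, with ratios of 0.99 [0.93 to 1.06], 0.70 [0.55 to 0.84] and 0.84 [0.76 to 0.91] at the 3 ages, short of 2-fold here, while the highest values among the alternatives were 1.26, 1.03 and 1.01. Rrm1, the large subunit of the same enzyme, had ratios of 0.65, 0.53 and 0.25. The ratios were 0.95, 0.66 and 0.50 for the thymidine kinase Tk1 and 0.68, 0.54 and 0.30 for the thymidylate synthase Tyms. Dut, which clears dUTP, was closest to equal (0.38, 0.08 and -0.05). Hence P5-4n held less of the helicase than P5-2n (86.8 and 218.8 CPM) and more of the nucleotide enzymes (542.0 and 425.5 CPM). Rrm2b, the other small subunit, and the mitochondrial kinase Tk2 are not S phase genes. They stayed between 10.8 and 13.1 CPM and between 3.37 and 5.74 CPM in all 6 libraries.

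The chromatin genes were split within the group. Asf1b, a histone chaperone, was at 26.7, 72.7, 5.66, 10.7, 18.3 and 28.4 CPM and was higher in 4n-CMs at all ages (1.44, 0.92 and 0.64). 2810417H13Rik followed it with 0.73, 0.85 and 0.22. Chaf1a (-1.12 [-1.46 to -0.78]) and Chaf1b (-0.89), which encode subunits of the CAF-1 chaperone, had ratios below 0 at P5. So had Uhrf1 (-0.56), which guides maintenance methylation, and Slbp (-0.64), which binds histone mRNAs. Esco2 (chr14:65819038-65833994) was the only member at least 2-fold higher in 4n-CMs at each of the 3 ages. Its levels were 20.6, 56.1, 2.43, 8.44, 10.5 and 21.9 CPM, with ratios of 1.44 [1.25 to 1.64], 1.80 [1.29 to 2.33] and 1.05 [0.80 to 1.31]. Rad51ap1 was at 0.55, 0.78 and 0.03. Esco2, Asf1b, Rrm2, Rrm1, Tk1, Tyms and 2810417H13Rik were above 0 at each age under all 6 alternatives, while Rad51ap1 turned at P5 under some of them.

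Promoters were compared because of the P5 ratios over all CMs. There the helicase genes and Orc1, Cdc6 and Cdt1 were lower in 4n-CMs, and most nucleotide genes were higher. Gmnn and Orc6 differed less, and across birth all of these groups fell. RefSeq promoter windows (GRCm38.p6, 250 bases before to 50 after a start) were found for 33 of 40 members, in 38 windows, and not for Mcm4, Gmnn, Gins1, Gins2, Pole, Rfc2 and Esco2. They were searched on both strands for the E2F words TTTCCCGC, TTTCGCGC, TTTGCCGC and TTTGGCGC, for CCAAT, for the GC box core GGGCGG, and for the CHR words TTTGAA and TTCGAA, the last of which is its own reverse complement. An E2F word was present in 34.2% of the member windows and in 2.26% of all 32851 windows. CCAAT was in 63.2% and 37.4%, GGGCGG in 68.4% and 35.7%, and a CHR word in 15.8% and 19.2%. By gene, an E2F word occurred in 4 of 5 helicase genes with a window, 3 of 4 licensing genes, 4 of 10 synthesis genes, 2 of 6 chromatin genes and 0 of 5 nucleotide genes. Of the members at least 2-fold lower in P5-4n it was present in 8 of 10 (Mcm3, Mcm5, Mcm6, Orc1, Cdc6, Cdt1, Rfc3 and Lig1, not in Mcm2 and Chaf1a). Of the others it was present in 5 of 23 (Mcm7, Pola1, Pold1, Uhrf1 and 2810417H13Rik). CCAAT was present in 7 of 10 of the former and in 15 of 23 of the latter. This split was drawn from the P5 ratios of the same data, and the former are largely helicase and licensing genes. It is therefore no test, and a link between a word and the levels was not tested. A match describes the letters and is not a site, and its absence here says nothing of the factor. The 160 bases before the start are shown for 3 members that were lower in P5-4n and hold an E2F word. Those of both subunits of ribonucleotide reductase are shown beside them. Each reads 5′ to 3′ on the strand of the gene, with E2F words and CCAAT (or ATTGG, its reverse complement) in capitals. The intervals are chr8:75109349-75109508 (plus strand) for Mcm5, chr1:128359706-128359865 (minus) for Mcm6, chr11:98907991-98908150 (plus) for Cdc6, chr7:102441535-102441694 (plus) for Rrm1 and chr12:24708094-24708253 (plus) for Rrm2. The Cdc6 stretch lies inside the GENCODE gene but outside its exons, and 13 bases of the Rrm2 stretch lie in an annotated exon.
Mcm5: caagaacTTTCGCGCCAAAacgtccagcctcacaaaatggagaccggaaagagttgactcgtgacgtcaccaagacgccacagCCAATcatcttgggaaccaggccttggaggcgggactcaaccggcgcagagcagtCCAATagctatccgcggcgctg
Mcm6: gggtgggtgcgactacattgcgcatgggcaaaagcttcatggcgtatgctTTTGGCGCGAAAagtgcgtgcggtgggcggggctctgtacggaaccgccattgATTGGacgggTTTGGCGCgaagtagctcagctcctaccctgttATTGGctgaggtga
Cdc6: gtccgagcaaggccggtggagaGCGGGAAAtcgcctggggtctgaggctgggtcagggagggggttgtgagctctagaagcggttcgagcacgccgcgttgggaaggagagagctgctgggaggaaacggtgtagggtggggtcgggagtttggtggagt
Rrm1: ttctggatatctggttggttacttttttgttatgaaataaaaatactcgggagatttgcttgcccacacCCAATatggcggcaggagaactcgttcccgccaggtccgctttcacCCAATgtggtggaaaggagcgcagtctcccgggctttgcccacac
Rrm2: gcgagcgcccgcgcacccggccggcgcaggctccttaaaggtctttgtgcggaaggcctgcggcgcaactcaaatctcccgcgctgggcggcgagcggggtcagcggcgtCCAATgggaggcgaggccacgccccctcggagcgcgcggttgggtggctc

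In Mcm5, a pair of overlapping E2F words on opposite strands begins 153 and 149 bases before the start, with CCAAT at 77 and 22. In Mcm6, a like pair begins at 110 and 106 and a further word at 47, with CCAAT at 57 and 14, and in Cdc6 an E2F word begins at 138. The stretches of Rrm1 and Rrm2 hold CCAAT (at 91 and 45, and at 50) and none of the 4 E2F words. Words were matched exactly, and the Rrm1 stretch holds ttcccgc, which is TTTCCCGC without its first base. The log2 ratio of P1 over E16.5 in 2n-CMs was -1.77 for Rrm1 and -2.33 for Rrm2.

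The spread of member transcripts over CMs was read after each CM had been thinned to 1000 UMIs. The share of CMs with at least 5 member UMIs was 13.2% [12.3 to 14.1], 18.8% [17.7 to 19.9], 1.84% [1.53 to 2.19], 1.92% [1.55 to 2.35], 8.31% [7.51 to 9.16] and 7.55% [6.72 to 8.46]. Unthinned, with deeper CMs at P5, it was 27.0%, 46.2%, 6.39%, 18.3%, 36.7% and 36.0%. With a cut of 3 UMIs it was 22.1%, 37.9%, 4.52%, 6.51%, 19.4% and 16.7%. With CMs thinned to 2000 UMIs and the cut at 5, it was 29.1%, 43.8%, 6.64%, 7.79%, 21.1% and 19.9%. At 1000 UMIs per CM, the mean within the CMs past 5 UMIs was 7.52, 6.88, 7.21, 6.12, 6.67 and 6.46 UMIs, which the cut itself keeps at 5 or more. In the remaining CMs the means were 0.92, 1.45, 0.48, 0.57, 0.95 and 0.84 UMIs. CMs next to the cut, with 4 or 5 member UMIs, made up 1.46% (P1-2n) to 13.8% (E16.5-4n). The variance over the mean was 3.76 in E16.5-2n and 2.06 to 2.81 in the other libraries. No cell type that lacks these transcripts was set apart in these libraries, and the part of free RNA in the low counts was not tested.

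**Figure D4:**
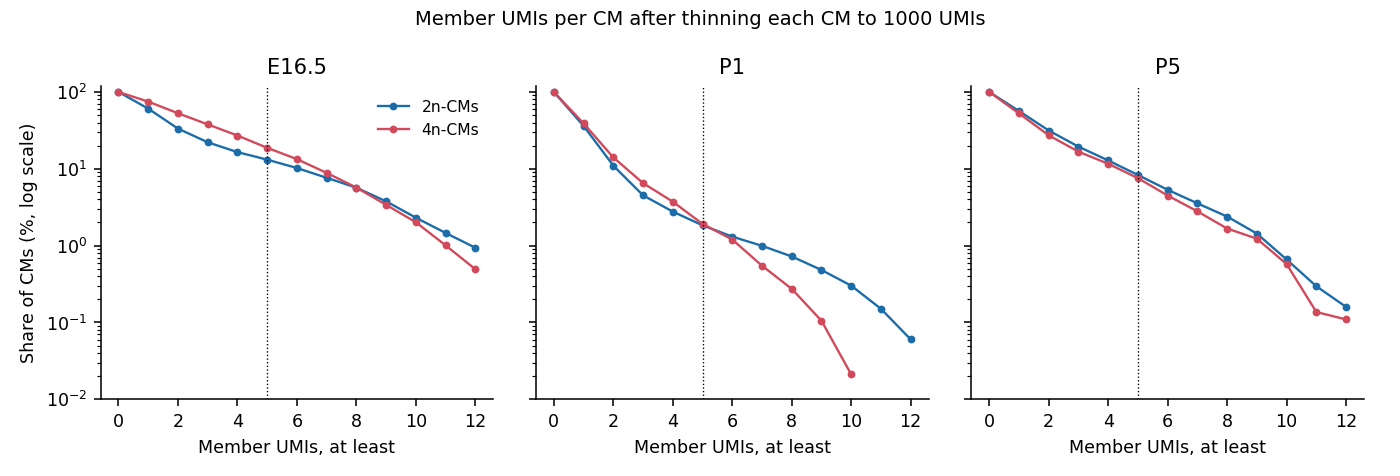
Share of CMs (y axis, log scale) with at least a given number of UMIs of the 40 members (x axis) after thinning each CM to 1000 UMIs, in 2n-CMs (blue) and 4n-CMs (red) at each age; the dotted line marks 5 UMIs and points at 0 are not drawn. At 5 UMIs the P1 lines stand at 1.84% and 1.92%, below 7.55% to 18.8% in the other 4 libraries.

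The members were then compared between classes of CMs set by genes outside the list. Thinned CMs with at least 2 UMIs of 29 mitosis genes formed a mitosis class, those with fewer and with at least 2 UMIs of 23 other S phase genes an S class, and the rest belonged to neither. A CM past both cuts went to the mitosis class, so that the classes do not set S phase apart from mitosis. These classes are ranges of a count, not cell types, and many CMs lay next to a cut (for example 1019 next to the mitosis cut in E16.5-4n). The mitosis class held 18.8%, 53.9%, 2.74%, 8.95%, 7.44% and 35.6% of CMs, and the S class 7.84%, 3.93%, 2.41%, 1.81%, 6.78% and 1.40%. In the mitosis class the median count of S genes was 0 in P1-2n, E16.5-4n, P1-4n and P5-4n and 1 in E16.5-2n and P5-2n. The median of mitosis genes in the S class was 0 in all 6 libraries, but the definition of that class keeps this count below 2. On all UMIs, the summed members were at 3977, 3366, 3236, 2205, 4406 and 2461 CPM in the mitosis class and at 3899, 3218, 2338, 1460, 3111 and 2218 CPM in the S class. The sum was thus higher in the mitosis class than in the S class in every library. Both classes were far above the CMs in neither class, at 1149, 1189, 527, 528, 1095 and 571 CPM.

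The members differed in which of the classes held more of them, also within a group. Rrm1 and Rrm2 were higher in the mitosis class than in the S class in 6 of 6 libraries, with intervals clear of 0, and Asf1b, Esco2 and 2810417H13Rik in 5. In E16.5-4n, Rrm2 was at 300.6 CPM in the S class and 559.4 CPM in the mitosis class. Mcm4 was lower in the mitosis class in 4 of 6 libraries, Mcm3, Mcm6 and Cdt1 in 3, and Mcm7 in 1, whereas Gmnn was higher there in 2 and Tyms in 1. In the same library, Cdt1 was at 63.6 CPM in the S class, 17.4 CPM in the mitosis class and 20.8 CPM in neither. Across the 40 members, the mitosis over S ratio in E16.5-2n and the 4n over 2n ratio at P5, which come from different libraries, had a Spearman rho of 0.77 and a Pearson r of 0.74. With the 4n over 2n ratio at P1 the values were 0.62 and 0.69. These are correlations across genes, which are not independent replicates and share the cells of each library.

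**Figure D5:**
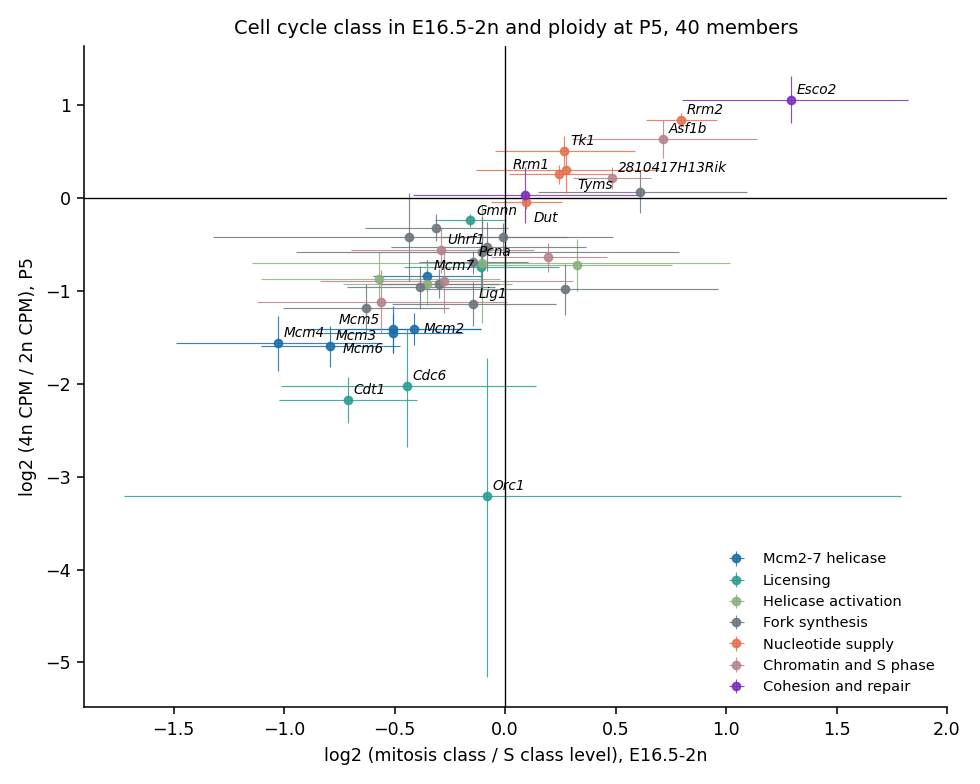
For each of the 40 members, log2 of its CPM in the mitosis class over the S class within E16.5-2n (x axis) and log2 of 4n over 2n CPM at P5 (y axis), coloured by group; lines are 95% exact intervals. Esco2, Rrm2 and Asf1b lie at the upper right, and Cdt1, Mcm3 and Mcm4 at the lower left.

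The ploidy difference was then taken class by class. Within the mitosis class the summed members were lower in 4n-CMs at all ages (-0.24, -0.55 and -0.84), and within the S class likewise (-0.28, -0.68 and -0.49). The mitosis class itself differed between ploidies. Its CMs held a mean of 4.24, 7.69, 3.43, 5.56, 3.51 and 6.12 UMIs of mitosis genes after thinning. For the S genes the means were 0.96, 0.65, 0.82, 0.53, 1.16 and 0.43. The part of this in the ratios was not tested. In CMs of neither class, however, the ratio was 0.05 [0.01 to 0.09] at E16.5 and 0.00 [-0.04 to 0.05] at P1, whereas P5 gave -0.94 [-0.98 to -0.90]. In these CMs, 25 of 40 members were at least 2-fold lower in P5-4n and 0 higher, against 1.95% and 1.44% of all genes. At E16.5, 0 were lower and 0 higher (0.808% and 6.99% of all genes), and at P1 2 were lower and 2 higher (0.158% and 7.95% of all genes). In P5-2n and P5-4n of this class, Cdt1 was at 29.3 and 6.44 CPM, Mcm2 at 45.1 and 13.3 CPM, and Prim1 at 19.7 and 5.05 CPM. Rrm2 and Esco2 are high in the mitosis class, whose CMs are left out here by construction. Rrm2 was at 50.1 and 42.4 CPM (-0.24), and Esco2 was at 3.20 and 3.39 CPM (0.08). The other nucleotide genes were below 0 in these CMs as well. Their ratios were -1.01 for Tk1, -0.71 for Rrm1, -0.43 for Dut and -0.30 [-0.68 to 0.08] for Tyms. The S genes that define the S class also differed at P5 among CMs of neither class, with a mean of 0.21 UMIs per thinned CM in P5-2n and 0.12 in P5-4n, against 0.23 and 0.25 at E16.5 and 0.13 and 0.13 at P1. Next to the S cut lay 1011 CMs of P5-2n and 324 of P5-4n. The part of these S genes in the member difference was not tested.

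A further list of 57 replication genes was also chosen with earlier results of these data known, and 56 had at least 100 UMIs. Of these, 32 were at least 2-fold lower from E16.5 to P1 in 2n-CMs and 34 in 4n-CMs, with 0 higher in either. Over all genes, 14.7% and 12.6% were lower and 3.08% and 3.93% higher. From P1 to P5, 23 were higher in 2n-CMs and 4 in 4n-CMs, with 0 lower. Over all genes, 5.09% and 2.71% were higher and 3.29% and 8.40% lower. From E16.5 to P5, 2 were lower in 2n-CMs and 26 in 4n-CMs, with 0 higher. The shares of all genes were 18.5% and 23.5% lower and 4.60% and 3.19% higher. Between ploidies at P5, 11 of 56 were lower and 1 higher in 4n-CMs, with a median of -0.34, against 1.04% and 2.39% of all genes. The lowest ratio was that of the chromatin remodeller Hells (14.4 CPM for P5-2n against 3.42 CPM for P5-4n, -2.08). Ccne2 and E2f1, which drive entry into S phase, were lower too (25.1 and 7.61 CPM, 32.1 and 14.8 CPM), whereas Ccne1 (-0.56), Cdk2 (-0.21) and Dnmt1 (-0.76) did not reach 2-fold. The highest ratio at P5 was that of Dbf4, the activator of the Cdc7 kinase, which was higher in 4n-CMs at all ages (1.85, 1.34 and 1.63). Between ploidies at P5, Orc2, Orc3, Orc4 and Orc5 of the origin recognition complex differed less than Orc1, with 4n over 2n ratios between -0.12 and 0.42. Across ages some of them passed 2-fold. Orc4 was lower in P5-2n than in E16.5-2n (-1.18). Orc5 was lower in P5-4n (-1.01) and Orc2 in P1-4n (-1.01) than in E16.5-4n.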

How the data were processed

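CMs of 6 groups, each 1 library, were measured by droplet 3′ single-cell RNA-seq. The authors deposited raw counts of UMIs per gene and cell. The submitters' processing notes name Cell Ranger, STAR, the mm10 (GRCm38) genome and Seurat 2.3.0, and the Cell Ranger version is not given in the sources used here. A pair of further deposited tables holds the authors' own gene lists and comparisons and was not used. The level of a gene in a library is the total of its UMIs in CMs as a share of all CM UMIs there (13070343 to 19665830 UMIs per library in E16.5-4n to P1-4n), as CPM. Intervals are exact (Poisson for levels, binomial for shares and for the split of UMIs between 2 libraries) at 95%, and the floor is 3 UMIs (0.153 to 0.230 CPM). With 1 library per group no p-value was computed. Genes with at least 100 UMIs over all libraries were tested by a fold of 2. No doublet caller was run, so that doublets of 2n-CMs may lie in the 4n gate. The calculations were tested on simulated data.

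The 40 members and the other lists were chosen with earlier results of these data known. All members could be named, together with the extreme genes among the other replication genes and fixed partner genes. Alternatives were another CM filter, median-of-ratios scaling, equal weight per CM, thinning, removal of CMs with stromal UMIs, a fold of 1.5 and other minimum counts. Python 3.11.15, numpy 2.4.6, scipy 1.17.1, pandas 2.3.3 and matplotlib 3.10.9 were used.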

Additional observations from a re-analysis of the deposited data

Results flagged for a closer look

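The 4n over 2n ratio changed sign between P5 and an earlier age, with intervals clear of 0. This held for the summed members and for 3 groups of them. The factors that switch the helicase on also changed sign, but their interval at E16.5 spanned 0 (0.05 [-0.07 to 0.18], with -0.85 at P5). For all 40 members the ratio was 0.34 at E16.5 and 0.16 at P1 against -0.26 at P5 (log2). For the licensing factors it was 0.12 at E16.5 and -0.48 at P5, and for the synthesis genes 0.12 and -0.65. The licensing sum is mostly Gmnn, which made up 3272 of its 4242 UMIs in E16.5-4n. The median ratio of the licensing factors did not change sign (-0.53 at E16.5 and -2.02 at P5). The chromatin genes were at 0.51 at E16.5, 0.42 at P1 and -0.13 at P5, and at P5 their sign turned with equal weight per CM (0.03) and after thinning (0.09). The difference between ages was not tested, since each ratio compares 1 library with 1 library and its interval covers counting error only.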

How the results depend on the processing

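No paired analysis was possible because each condition had 1 library. With another CM filter or another minimum count, no summed ratio moved beyond its interval and no count of members by over 1.5 times. The following are log2 ratios of the summed members. With equal weight per CM they were 0.47, 0.25 and -0.14 for 4n over 2n at E16.5, P1 and P5, 1.27 for P5 over P1 and -0.32 for P5 over E16.5 among diploid CMs, and -1.81, 0.88 and -0.93 for P1 over E16.5, P5 over P1 and P5 over E16.5 in 4n-CMs. After thinning they were 0.46 at E16.5 and -0.17 at P5 for 4n over 2n, -0.33 for P5 over E16.5 in 2n-CMs, and -1.87 (P1 over E16.5) and 0.91 (P5 over P1) in 4n-CMs. Without stromal-marked CMs they were 0.48 for 4n over 2n at E16.5, and -1.94 (P1 over E16.5) and -1.11 (P5 over E16.5) in 4n-CMs. Median-of-ratios scaling gave 0.23, 0.028 and -0.30 for 4n over 2n, -1.23, 1.32 and a reversed 0.092 for diploid CMs, and -1.44, 1.00 and -0.44 for tetraploid CMs; it differs from CPM by a constant per library.

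Counts of members moved as follows. At E16.5, 4 were higher in 4n-CMs with equal weight, after thinning and without stromal-marked CMs (7.59%, 8.61% and 4.86% of all genes), and at P1 2, 2 and 3 (8.24%, 9.44% and 4.42%), with 1 lower after thinning (1.197%) and 2 lower without stromal-marked CMs (0.615%). At P5, 2 were higher with equal weight and after thinning (2.997% and 5.16%). At a fold of 1.5, 8 were higher and 2 lower in 4n-CMs at E16.5 (12.6% and 2.48% of all genes), 8 and 2 at P1 (13.8% and 0.797%) and 3 and 23 at P5 (5.66% and 3.82%). At the same fold, 10 were lower in P5-2n than in E16.5-2n (40.8%) and 21 higher in P5-4n than in P1-4n (5.77%). Median-of-ratios scaling left 0 lower in P5-2n than in E16.5-2n (7.04% of all genes) and 7 lower in P5-4n than in E16.5-4n (8.82%). Apart from these, where the cause was not tested, Orc1 (4 UMIs in P5-4n) is limited by depth.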
